A study of Mus musculus with 16 samples.

Results

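The cytosolic and mitochondrial heat shock chaperones were followed as 33 genes chosen by name, of which 32 were found among the 27998 genes counted in lineage-depleted mouse bone marrow. *Cct6a* was not analysed here. The strongly stress-inducible genes *Hspa1a*, *Hspa1b*, *Dnajb1* and *Hsph1* were kept apart from the other 28, which are called constitutive here. They were chosen by name, with earlier results of these data known. After a filter on low counts, 31 of the 32 were tested in each of 8 cell classes and *Hspb1* in megakaryocyte progenitors alone, which gave 249 gene-by-class tests per comparison.

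Single-cell RNA sequencing was made from 16 C57BL/6 mice, 4 in each of 4 groups, aged 6 to 12 weeks in the sample labels and 8 to 12 weeks in the study's methods. WT mice were labelled Tet2fl/fl and *Tet2*-KO mice Vav-Cre-Tet2-/-. The *Vav* promoter drives Cre throughout the blood system, so the presence of Cre and the loss of *Tet2* cannot be told apart in any comparison of genotypes. Mice of each genotype received intraperitoneal vehicle or recombinant IL1β at 500 ng per mouse and day for 5 weeks. Red cells were lysed, lineage-positive cells were depleted, and cells of 2 mice of the same group, marked with hashtag antibodies, were pooled in each of 8 libraries.

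The libraries held 52915002 to 95326908 unique molecular identifiers (UMIs, counts of single captured RNA molecules) in 94917 cells, of which 57896 were assigned to 1 mouse by hashtag. Classes were named from marker genes of their clusters, and each is to be read as HSC-like, monocyte-like and so on. The monocyte class and the MPP class, of multipotent progenitors, were mixed. The largest monocyte cluster was led by *Cd209a*, a marker of dendritic cells, and *Cd7*, with 2 of the monocyte markers used (*S100a4* and *Cx3cr1*) among its 10 leading genes. In MPP, 1 cluster was led by *Dntt*, a gene of lymphoid progenitors, and the other by *Adgrl4*, *Hlf* and *Cd34*, of which *Hlf* also led the HSC cluster. The HSC cluster was led by *Hlf*, *Mecom* and *Ctla2a* and gave 3902 assigned cells, 34 to 557 per mouse. Only 22.55% of erythroblasts could be assigned, against 66.5% to 78.3% in the other 7 classes. In 2 pools with mice of both sexes, 10.6% (WT vehicle mouse 2) and 21.5% (WT IL1β mouse 3) of the cells assigned to the male held *Xist* UMIs. Every other pool held mice of the same sex, so the assignment could not be checked by *Xist* there. By *Xist*, 1 of 4 mice was female in each WT group and 2 of 4 in each *Tet2*-KO group. In the *Tet2*-KO vehicle group both females were in the pool of mice 1 and 2. In the *Tet2*-KO IL1β group both were in the pool of mice 3 and 4. Sex and pool thus cannot be told apart within the *Tet2*-KO groups. Sex as a covariate left the counts of chaperone calls over the 8 classes as they were in all 5 comparisons. At most 57 barcodes were shared by any pair of libraries.

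Chaperones bind unfolded proteins and release them in cycles driven by ATP. HSP70 proteins take up short exposed stretches with the help of J proteins and nucleotide exchange factors, HSP90 finishes many kinases and receptors with its co-chaperones, and the ring-shaped chaperonins, TRiC in the cytosol and the HSP60 and HSP10 pair in mitochondria, enclose whole chains. Under proteotoxic stress the transcription factor HSF1 binds arrays of inverted GAA units, the heat shock element, and raises the inducible members. In blood-forming cells, control of protein folding and degradation is known to matter for the maintenance of HSCs.

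Promoter sequence is shown first as background, because the inducible genes are known targets of HSF1. A part of HSF1 in the changes with IL1β was not tested. Windows of 300 bases, from 250 before to 50 after each annotated start, were taken from RefSeq on GRCm38.p6 for the 26 members present in that table. Both strands were searched for GAANNTTC or TTCNNGAA, the 2 inverted arrangements of neighbouring GAA units. Each motif is its own reverse complement, and matches may overlap. A match was found for 13 of the 26 members (50.0%), against 17.0% of the 27025 genes in the table. Counted by window, since a gene can have several, 3 or more matches were found in 5 of the members' 36 windows and in 0.256% of all 32851 windows in the table. Those 5 belong to *Hspd1*, *Hspe1*, *Hsph1* and *Chordc1* and are not separate sites, since the *Hspd1* and *Hspe1* windows overlap and hold the same 3 matches and 2 overlapping windows belong to *Hsph1*. The windows of *Ahsa1*, *Stip1*, *Ptges3*, *Hspa4*, *Hspa14*, *Dnaja2*, *Cct3*, *Cct7*, *Cct8* and *Tcp1*, all called lower with IL1β in some class, held no match. Neither did those of *Dnajb1*, *Hspa4l* and *Dnajc7*, which were not called lower. The lack of a match says only that these letters were not found there. Matches were also found for *Hspa1a*, *Hspa1b*, *Dnajb4*, *Dnajb6*, *Hspb1*, *Bag3* and *Cct2*, none of them called lower. In the stretches below, printed 5′ to 3′ on the strand of the gene, capitals mark the matches and all other bases are in lower case. They come from chr17:34972213-34972300 (minus strand, *Hspa1a*), chr17:34959295-34959382 (minus strand, *Hspa1b*), chr5:149636322-149636409 (minus strand, *Hsph1*), chr1:55088019-55088116 (plus strand, *Hspe1*), chr9:18292223-18292296 (plus strand, *Chordc1*) and chr4:40722304-40722391 (plus strand, *Dnaja1*).
Hspa1a: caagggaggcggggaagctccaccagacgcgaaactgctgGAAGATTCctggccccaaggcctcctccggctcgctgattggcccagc
Hspa1b: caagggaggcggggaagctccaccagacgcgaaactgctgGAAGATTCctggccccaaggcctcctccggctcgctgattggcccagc
Hsph1: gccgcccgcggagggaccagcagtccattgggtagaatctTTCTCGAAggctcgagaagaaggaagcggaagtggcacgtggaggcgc
Hspe1: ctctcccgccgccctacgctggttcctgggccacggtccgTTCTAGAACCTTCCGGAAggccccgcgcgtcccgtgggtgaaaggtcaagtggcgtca
Chordc1: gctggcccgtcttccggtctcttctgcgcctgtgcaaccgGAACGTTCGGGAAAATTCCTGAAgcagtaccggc
Dnaja1: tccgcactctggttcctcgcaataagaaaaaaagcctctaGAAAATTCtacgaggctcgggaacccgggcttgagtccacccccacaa
The *Hspa1a* and *Hspa1b* stretches were identical in 88 of 88 bases. Of the 50-base words of their transcripts 58.8% and 62.3% were shared, but none in the last 500 bases, where the 3′ reads of this assay start. Their counts can be told apart there and are uncertain for reads that fall further upstream.

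Levels were first described in vehicle-treated WT mice, as CPM, UMIs summed over a mouse's cells of a class and scaled to a common total adjusted by TMM. The constitutive chaperones as a group were highest in erythroblasts and megakaryocyte progenitors and lowest in monocytes and basophils. Of the 32 members, 16 had their highest mean in erythroblasts, 8 in megakaryocyte progenitors, 3 in immature myeloid progenitors (IMP), 3 in monocytes and 2 in HSCs. *Hspd1*, which encodes mitochondrial HSP60 and, like the other genes given here, was picked after its values were seen, stood at 1002 ± 36.2 CPM in erythroblasts and 185 ± 50.8 CPM in monocytes (SD, n = 4), a 5.41-fold difference of means with the same order in all 16 mice. *Hsp90aa1*, the stress-responsive HSP90 gene, stood at 2586 ± 214 CPM and 901 ± 160 CPM in the same classes. The inducible HSP70 genes ran the other way. *Hspa1a* was at 172 ± 96.4 CPM in monocytes and 20.9 ± 10.1 CPM in erythroblasts, 8.24-fold apart and in that order in all 16 mice. The cluster led by *Cd209a* made up 44.9% of the monocytes of this group, so these levels are not those of monocytes alone. These orders are descriptions of classes that share libraries and mice. TMM factors were set within each class, so levels in different classes were not adjusted to each other.

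**Figure D1:**
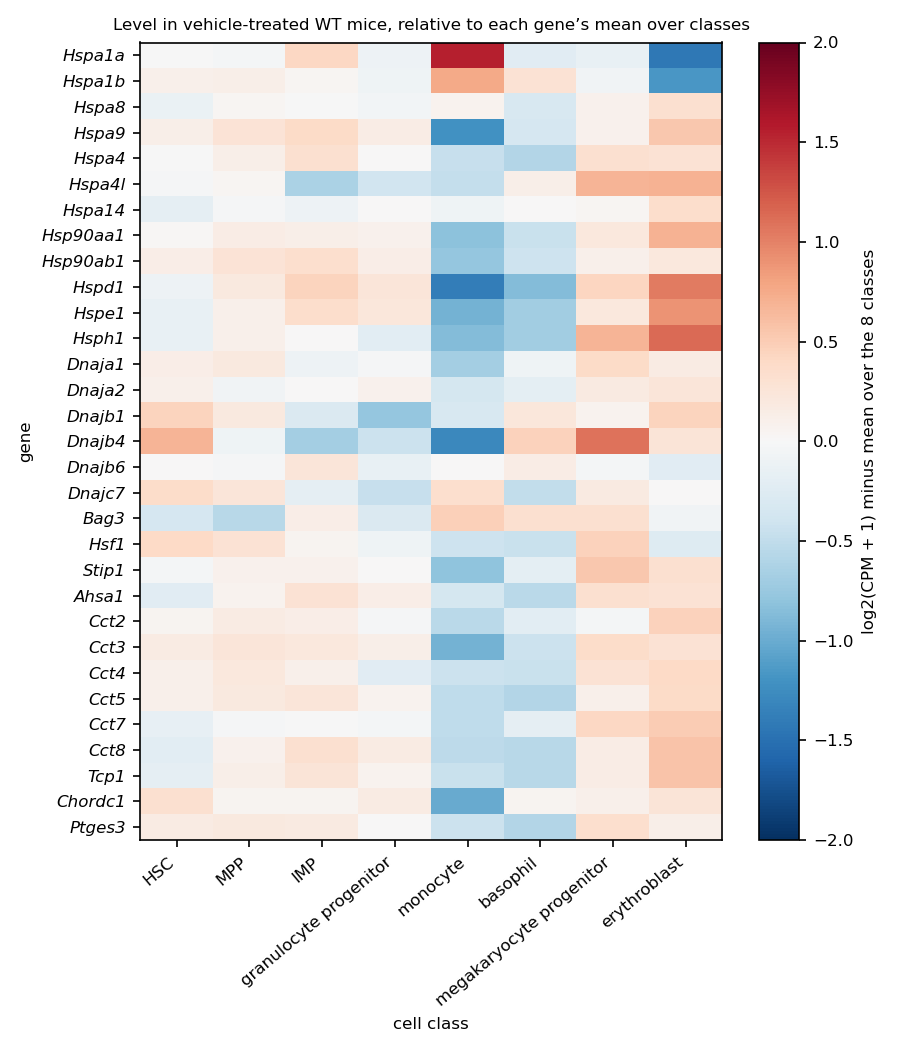
Mean level of 31 chaperone genes in vehicle-treated WT mice (n = 4) by cell class, as log2(CPM + 1) minus the gene's mean over the 8 classes, with red above and blue below that mean. *Hspd1*, *Hspe1* and *Hsph1* are highest in erythroblasts, and *Hspa1a* is highest in monocytes and lowest in erythroblasts.

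As the mean of log2(CPM + 1) over the 28 constitutive genes, the score ran from 7.64 ± 0.05 in erythroblasts, next to 7.62 ± 0.09 in megakaryocyte progenitors, down to 6.99 ± 0.15 in basophils and 6.75 ± 0.25 in monocytes (SD, n = 4). Neighbours in that order overlapped, while erythroblasts and basophils did not. All 32 genes together took 0.812% of UMIs in monocytes and 1.51% in erythroblasts. Over the 4 inducible genes the score lay between 5.79 ± 0.76 in granulocyte progenitors and 6.33 ± 0.76 in monocytes, and mice of every class overlapped. *Hspb1*, a small heat shock protein, gave 1 to 51 UMIs per mouse in megakaryocyte progenitors and 0 to 25 in HSCs, too few to describe further.

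The comparison of genotypes asked whether loss of *Tet2* changed chaperone expression, with vehicle and with IL1β. In HSCs the HSP70 genes *Hspa1a* and *Hspa1b* and the J protein gene *Dnajb1* had higher means in *Tet2*-KO mice under both treatments, but no member passed the test in any class, and mice of a group spread widely. *Hspa1a*, inducible HSP70, read 112, 37.4, 77.8 and 3.85 CPM in WT vehicle mice 1 to 4. It read 246, 61.8, 241 and 18.1 CPM in *Tet2*-KO mice with vehicle, where mice 2 and 4 lay within the WT range and mice 1 and 3 above it. With IL1β it read 32.3, 85.8, 106 and 33.8 CPM in WT and 256, 381, 100 and 266 CPM in *Tet2*-KO mice, so that only *Tet2*-KO mouse 3 lay within the WT range. Some of these values rest on few UMIs, 3 each in WT vehicle mice 2 and 4 and 6 in WT IL1β mouse 4. The log2 difference of *Tet2*-KO over WT was 1.51 (SE 0.59) with vehicle and 1.93 (SE 0.56) with IL1β, or 2.85-fold and 3.80-fold, with adjusted p = 1.00 and adjusted p = 0.279 in edgeR's quasi-likelihood test.

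*Hspa1b*, the neighbouring copy of inducible HSP70, read 79.2, 162, 194 and 14.1 CPM in WT vehicle mice and 386, 170, 453 and 34.2 CPM in *Tet2*-KO vehicle mice. With IL1β it read 29.6, 278, 213 and 304 CPM in WT and 693, 800, 262 and 688 CPM in *Tet2*-KO mice. As for *Hspa1a*, mouse 4 was lowest in both vehicle groups and mouse 3 lowest in the *Tet2*-KO IL1β group. The log2 differences were 1.35 and 1.72, with adjusted p = 1.00 and adjusted p = 0.350 in edgeR.

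*Dnajb1*, the J protein HSP40 that delivers clients to HSP70, read 130, 74.9, 91.6 and 66.7 CPM in WT vehicle mice and 229, 129, 114 and 85.6 CPM in *Tet2*-KO vehicle mice. With IL1β it read 122, 73.6, 98.4 and 95.7 CPM in WT and 128, 242, 141 and 181 CPM in *Tet2*-KO mice, and these groups did not overlap. The log2 difference with IL1β was 0.84 (SE 0.25, adjusted p = 0.279 in edgeR) and with vehicle 0.66. The 74.9 CPM of WT vehicle mouse 2 rest on 6 UMIs.

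*Hsph1*, an HSP110 exchange factor for HSP70, read 82.7, 25.0, 126 and 65.4 CPM in WT vehicle, 35.0, 98.1, 57.1 and 101 CPM in WT IL1β, 101, 82.4, 182 and 109 CPM in *Tet2*-KO vehicle and 16.0, 96.1, 47.8 and 62.3 CPM in *Tet2*-KO IL1β mice. The 25.0 and 16.0 CPM rest on 2 and 3 UMIs. All 4 groups overlapped, and the log2 difference of *Hsph1* between genotypes was 0.48 with vehicle and 0.14 with IL1β. With IL1β its group means stood in the other order, lower in *Tet2*-KO mice. The vehicle value was 0.10 without the *Tet2*-KO vehicle pool of mice 3 and 4 and 0.19 without mouse 3 of that pool, and 0.94 and 0.31 without WT vehicle mouse 3 or 4 and 0.91 without their pool. The sign of the IL1β value turned in several alternatives given with the processing limits.

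**Figure D2:**
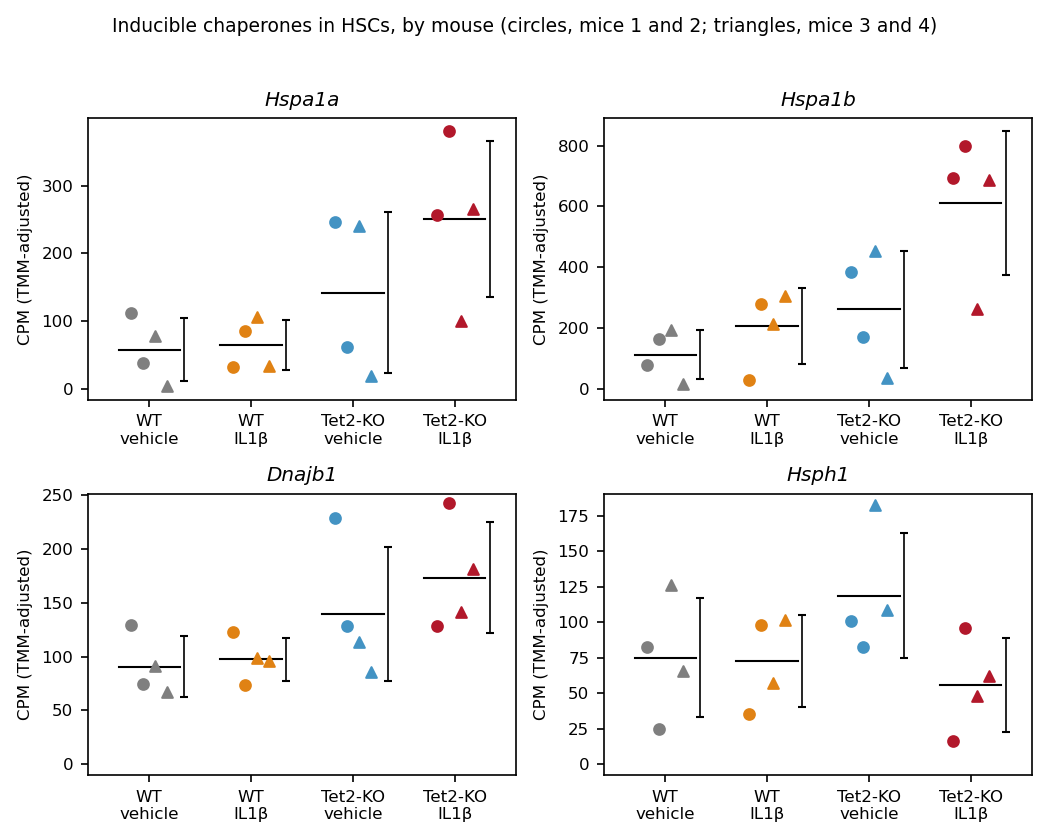
CPM of the 4 inducible chaperone genes in HSCs for each mouse, by group, with circles for mice 1 and 2, triangles for mice 3 and 4, lines for means and bars for the SD (n = 4). For *Hspa1a* the *Tet2*-KO IL1β mice lie between 100 and 381 CPM and the WT IL1β mice between 32.3 and 106 CPM.

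Across the 8 classes, none of the 249 tests was called for *Tet2*-KO against WT with vehicle, where 0.023% of all gene-by-class tests were called, and none with IL1β, where 0.0743% were called. At an unadjusted p under 0.05 the members gave 32 of 249 with vehicle, against 3.9% of all tests, and 34 of 249 with IL1β, against 6.62%. DESeq2 also called 0 members in both comparisons. The inducible genes had higher fitted values in *Tet2*-KO cells in 32 of 32 tests with vehicle, with a median log2 difference of 0.79, and in 26 of 32 with IL1β, with a median of 0.88. For *Hspa1a* with IL1β the difference ran from 0.92 in erythroblasts to 1.93 in HSCs. These values are not independent of each other, since all classes come from the same mice. The fitted values of the constitutive genes were higher in 170 of 217 tests with vehicle, with a median of 0.08, where 48.8% to 53.7% of all genes of a class were higher. With IL1β they were lower in 156 of 217, with a median of −0.09, where 48.8% to 53.1% of all genes were higher. Over all members, group means stood in the other order than the fitted value in 16 of 249 tests with vehicle and 11 of 249 with IL1β. *Hsph1* in HSCs with IL1β was among them. The constitutive score differed between genotypes by 0.14 with vehicle, which was 0.072 without *Tet2*-KO vehicle mouse 3, 0.078 without the WT vehicle pool of mice 1 and 2, and 0.25 and 0.037 without the *Tet2*-KO vehicle pool of mice 1 and 2 or of mice 3 and 4. With IL1β it differed by −0.046, and by −0.016 without WT IL1β mouse 4, −0.028 without *Tet2*-KO IL1β mouse 1 and −0.070 without mouse 2 of that group.

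Other fits gave calls. When each pool, with its cells of no assigned mouse included, stood as 1 of 2 replicates per group, *Hspa1a* (log2 difference 2.41) and *Hspa1b* (2.12) were called in HSCs with IL1β, both at an adjusted p = 0.00421 in edgeR. That fit changed the replicate and the cells together, and their parts cannot be told apart. With the filter on low counts left out, 17 member tests were called with vehicle and 13 with IL1β, 6 of each for *Hspa1a* and 6 for *Hspa1b*. The share of all tests called in that fit is not given here, so these counts are not set against a background. In that fit edgeR's prior degrees of freedom, which set how far each gene's spread is drawn to a common value, were infinite in HSCs, against 16.8 with the filter. With vehicle, leaving out the *Tet2*-KO pool of mice 3 and 4 gave a call of *Dnajb1* in HSCs (log2 difference 1.16). Leaving out single mice or pools, or using a hashtag ratio rule, also moved the uncalled vehicle values in HSCs. *Hspa1a* was at 0.91 without WT vehicle mouse 4 and 0.78 without the WT vehicle pool of mice 3 and 4, against 1.51. *Hspa1b* was at 2.46 without WT vehicle mouse 3 and 0.85 without mouse 4, against 1.35. *Dnajb1* was at 0.26 without *Tet2*-KO vehicle mouse 1, 0.20 without the *Tet2*-KO vehicle pool of mice 1 and 2, 0.32 without the WT vehicle pool of mice 3 and 4 and 0.30 with a hashtag ratio rule, against 0.66. The ratio rule took *Dnajb1* with IL1β from 0.84 to 0.56.

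In the vehicle groups, much of the spread of the inducible genes lay between mice of the same pool. Averaged over the 8 classes, their score was 6.05 ± 0.74 in WT vehicle, 6.26 ± 0.33 in WT IL1β, 6.85 ± 0.73 in *Tet2*-KO vehicle and 6.98 ± 0.47 in *Tet2*-KO IL1β mice (SD, n = 4). In the WT vehicle group, mice 3 and 4, which shared a library, differed by 1.75 while the 2 pool means differed by 0.32. In the *Tet2*-KO vehicle group, mice 3 and 4 stood at 7.36 and 5.86 and the pool means differed by 0.49. In the WT IL1β group the pool means differed by 0.53 and mice of a pool by 0.28 or less. In the *Tet2*-KO IL1β group the pool means differed by 0.59 and mice of a pool by 0.47 and 0.64. The same mice stood apart in most classes. WT vehicle mouse 4 had the lowest inducible score of its group in 8 of 8 classes and mouse 3 the highest in 8 of 8, *Tet2*-KO vehicle mouse 4 was lowest in 7 of 8, and *Tet2*-KO IL1β mouse 3 was lowest in 7 of 8. *Hspa1a* alone was lowest in these 3 low mice in 8 of 8 classes.

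**Figure D3:**
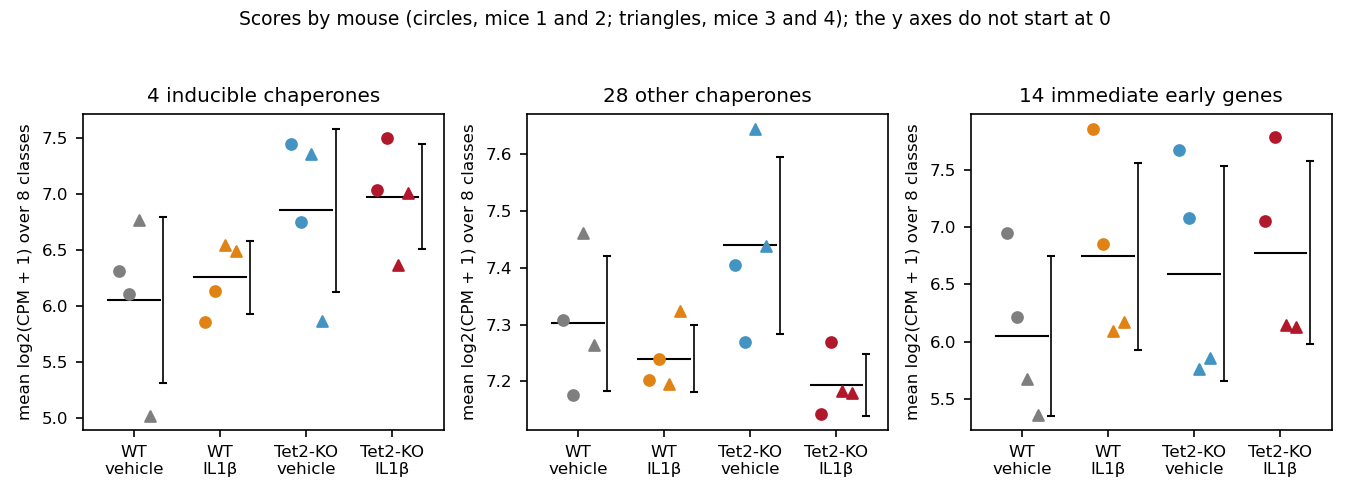
Mean log2(CPM + 1) over the 4 inducible chaperones, the 28 other chaperones and 14 immediate early genes, averaged over 8 cell classes, for each mouse, with lines for means and bars for the SD (n = 4) and y axes that do not start at 0. The inducible score runs from 5.02 to 6.77 in WT vehicle mice, and the immediate early genes are higher in the pool of mice 1 and 2 in all 4 groups.

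Immediate early genes, which rise quickly on stimulation or handling of cells, differed between pools. Their score was higher in the pool of mice 1 and 2 than in the pool of mice 3 and 4 in all 4 groups, by 1.07 in WT vehicle, 1.23 in WT IL1β, 1.57 in *Tet2*-KO vehicle and 1.29 in *Tet2*-KO IL1β. The inducible score differed between the same pools by 0.32, −0.53, 0.49 and 0.59. In HSCs *Fos* read 486, 499, 403 and 136 CPM in WT vehicle mice and 2158, 1066, 540 and 274 CPM in *Tet2*-KO vehicle mice. With IL1β it read 1454, 433, 158 and 146 CPM in WT and 1135, 1632, 167 and 210 CPM in *Tet2*-KO mice, and the genotypes overlapped under both treatments. *Fos* differed between genotypes by 1.49 with vehicle and 0.44 with IL1β, *Jun* by 0.94 and 0.71 and *Egr1* by 0.80 and 0.58 on the log2 scale in HSCs, none of them called. The part of this in the chaperone values was not tested.

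The comparison of IL1β with vehicle asked what 5 weeks of the cytokine did to the chaperones in each genotype. In both, nearly all calls were of lower levels, and most stood in IMP and granulocyte progenitors in WT and in these and MPP in *Tet2*-KO mice, with co-chaperones of HSP90, the mitochondrial chaperonin, *Dnaja1* and *Hsph1* among them. In WT mice 34 of 249 member tests (13.7%) were called, 31 lower and 3 higher, in 19 genes, where 13.8% of all tests were called and 7.8% were called as lower. The members' share was thus near the background. In *Tet2*-KO mice 70 of 249 (28.1%) were called, 69 lower and 1 higher, in 21 genes, where 17.2% of all tests were called and 9.49% as lower. The median log2 change over the 249 tests was −0.12 in WT and −0.21 in *Tet2*-KO mice, and over all genes it lay between −0.003 and 0.04 in every class and genotype. Totals not adjusted by TMM moved the IL1β changes up by a median of 0.12 in WT and 0.09 in *Tet2*-KO mice. All 34 and 70 calls kept their sign on that scale, but the number of tests with a lower value went from 166 to 122 in WT and from 193 to 167 in *Tet2*-KO mice.

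These counts changed with the libraries and cells that entered the fit. With the 8 pools as replicates, which also added the cells of no assigned mouse, they were 14 in WT and 45 in *Tet2*-KO mice, and all 34 and 70 values kept their sign. With a hashtag ratio rule the WT count was 20, without WT vehicle mouse 3 it was 22, without WT IL1β mouse 3 it was 20, and it was 21, 12 and 15 without the WT vehicle pool of mice 1 and 2, that of mice 3 and 4, and the WT IL1β pool of mice 3 and 4. The *Tet2*-KO count was 37 without the vehicle pool of mice 3 and 4, and 18 of the 70 called values then moved by more than 1.5 times, all of them nearer to 0. That pool held both males of its group. Other pools left out raised the counts, which ran from 12 to 41 in WT and from 37 to 93 in *Tet2*-KO mice over single pools left out. The shares of all tests called in these other fits are not given here, so these counts are not set against a background. The group means stood in the other order than the fitted value in 12 of 249 tests in WT and 7 of 249 in *Tet2*-KO mice, none of them called.

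By class, the calls in WT mice were 1 of 31 in HSCs (background 8.59%), 3 of 31 in MPP (13.9%), 9 of 31 in IMP (18.9%), 16 of 31 in granulocyte progenitors (31.1%), 0 of 31 in monocytes (3.3%), 0 of 31 in basophils (6.77%), 0 of 32 in megakaryocyte progenitors (3.62%) and 5 of 31 in erythroblasts (18.5%). In *Tet2*-KO mice they were 9 of 31 in HSCs (17.6%), 14 in MPP (17.4%), 16 in IMP (26.8%), 19 in granulocyte progenitors (40.4%), 0 in monocytes (1.42%), 4 in basophils (9.37%), 2 of 32 in megakaryocyte progenitors (5.49%) and 6 of 31 in erythroblasts (13.1%). Granulocyte progenitors thus held the most calls and also the highest background. At unadjusted p under 0.05, monocytes gave 2 of 31 in WT and 6 of 31 in *Tet2*-KO mice, against 18.9% and 17.2% of all genes there.

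**Figure D4:**
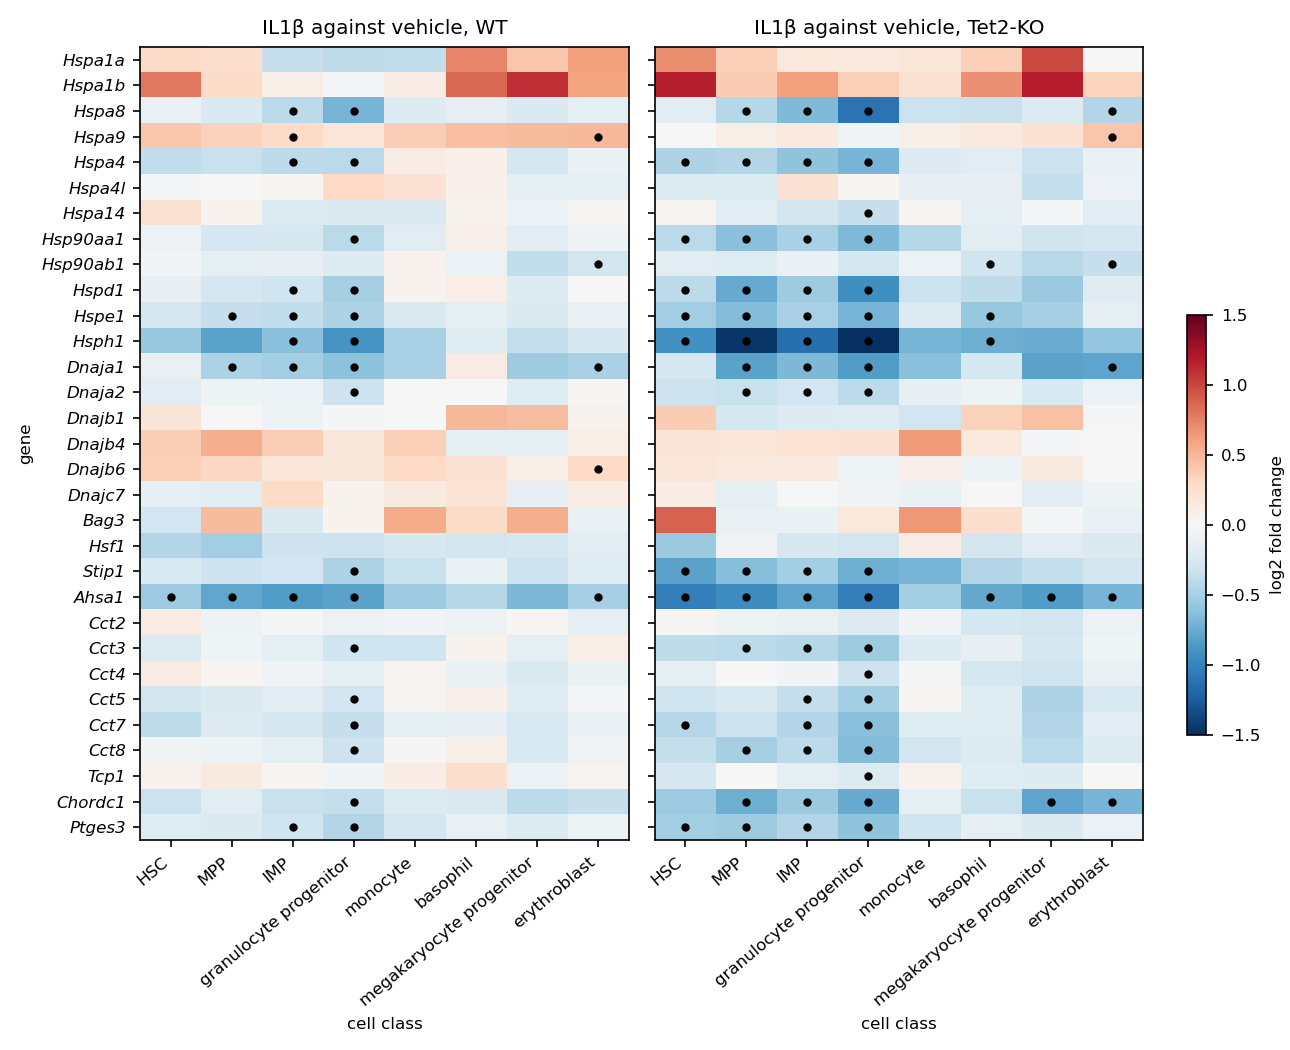
Log2 fold change of IL1β over vehicle for 31 chaperone genes in 8 cell classes, in WT (left) and *Tet2*-KO mice (right), with blue for lower with IL1β, colours capped at ±1.5 and black dots for an adjusted p under 0.05 (edgeR). Granulocyte progenitors hold the most dots in both genotypes, 16 in WT and 19 in *Tet2*-KO mice, 31 of 34 in WT and 69 of 70 in *Tet2*-KO mice mark a lower value, and *Ahsa1* is below 0 in all 16 cells of the map.

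Classes were made of clusters whose shares moved with IL1β. In MPP, the cluster led by *Dntt*, *Arpp21* and *Flt3* made up 61.3% of cells with vehicle and 18.3% with IL1β in WT, and 62.8% and 22.5% in *Tet2*-KO mice, the rest being the cluster led by *Adgrl4*, *Hlf* and *Cd34*. The MPP of the IL1β groups were thus mostly of another cluster than those of the vehicle groups. In granulocyte progenitors, the cluster led by *Mpo*, *Prtn3* and *Elane* went from 32.4% to 16.8% in WT and from 33.2% to 11.6% in *Tet2*-KO mice. In the monocyte class, the cluster led by *Cd209a*, *Cd7* and *Upb1* went from 44.9% to 29.7% and from 54.7% to 33.8%. In basophils, the cluster led by *Cd200r3*, *Lilr4b* and *Ccl3* went from 8.34% to 2.85% in WT and from 2.33% to 16.5% in *Tet2*-KO mice. Within the largest cluster alone, an analysis added after the data were seen, the calls were 8 of 30 in WT and 17 of 30 in *Tet2*-KO mice in MPP, where it was the cluster with *Hlf*, and 14 of 31 and 16 of 31 in granulocyte progenitors, every one lower, where 12.0% and 18.8% of all genes were called in that MPP cluster and 20.7% and 29.8% in that granulocyte progenitor cluster. In megakaryocyte progenitors the largest cluster gave 2 of 32 and 13 of 32, where 8.47% and 19.4% of all genes were called. Erythroblasts, fitted with 15 mice, gave 2 of 31 in WT, against 5 in the whole class, with a median of −0.003 against −0.07. They gave 6 of 31 in *Tet2*-KO mice as before, where 13.6% and 9.03% of all genes were called in WT and *Tet2*-KO mice. Basophils gave 0 of 31 in WT and 1 of 31 in *Tet2*-KO mice, against 4 in the whole class, where 5.01% and 3.70% of all genes were called. The monocyte cluster led by *Cd209a*, fitted with 14 mice, gave 1 of 28 and 0 of 28, where 2.59% and 0.70% of all genes were called. HSCs and IMP were 1 cluster each. A lower level in a class can be fewer cells of a state within it or less RNA per cell, and these cannot be told apart in sums over cells.

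Among the co-chaperones of HSP90, *Ahsa1*, *Stip1*, *Ptges3* and *Chordc1* gave 9 lower calls of 32 tests in WT and 20 of 32 in *Tet2*-KO mice, with median log2 changes of −0.32 and −0.58 and a fitted value below 0 in 32 of 32 tests in each genotype. In WT HSCs the group means of *Stip1* stood the other way, at 114 CPM with vehicle and 118 CPM with IL1β. The shares were 28.1% and 62.5%, against 7.8% and 9.49% of all tests called as lower. *Ahsa1*, which stimulates the ATPase of HSP90, fell in 5 classes in WT and 7 in *Tet2*-KO mice, with values from −0.84 to −0.43 and from −1.03 to −0.50 over the 8 classes. The call in *Tet2*-KO megakaryocyte progenitors (−0.84) was lost in 10 of 33 alternatives. Without the *Tet2*-KO vehicle pool of mice 3 and 4 the value was −0.31 there, −0.41 in basophils (from −0.76) and −0.34 in erythroblasts (from −0.70), none of them then called, and −0.48 in IMP (from −0.80), which was still called. The WT call in MPP (−0.78) was lost only with the marker gate on each cell, at −0.26 (adjusted p = 0.702 in edgeR), and that in WT erythroblasts in 3 of 32 alternatives, among them those without the WT vehicle pool of mice 1 and 2 or the WT IL1β pool of mice 3 and 4.

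In HSCs *Ahsa1* read 115, 99.8, 133 and 123 CPM in WT vehicle mice and 83.4, 119, 69.9 and 84.5 CPM in WT IL1β mice, which overlapped through WT IL1β mouse 2. In *Tet2*-KO mice it read 125, 144, 175 and 169 CPM with vehicle and 80.0, 81.5, 72.3 and 71.6 CPM with IL1β, without overlap. The log2 change was −0.54 (SE 0.17, adjusted p = 0.0441) in WT and −1.02 (SE 0.14, adjusted p = 2.33e-05) in *Tet2*-KO mice in edgeR. The WT call in HSCs was lost in 16 of 33 alternatives, with adjusted p of up to 0.596 there, and no alternative turned its sign. In granulocyte progenitors, chosen as the class with the most calls, *Ahsa1* was at 152 ± 7.93 CPM in WT vehicle and 87.4 ± 7.50 CPM in WT IL1β mice, and at 173 ± 28.9 and 84.5 ± 7.40 CPM in the *Tet2*-KO groups (SD, n = 4), changes of −0.81 and −1.03.

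*Chordc1*, which encodes an HSP90 partner with zinc-binding CHORD domains, fell in 1 class in WT (granulocyte progenitors) and 5 in *Tet2*-KO mice, and was below 0 in 8 of 8 classes in both. In HSCs it read 79.2, 150, 126 and 79.5 CPM in WT vehicle and 57.8, 131, 69.9 and 118 CPM in WT IL1β mice, where the groups overlapped and IL1β mice 1 and 3 lay below every vehicle mouse. In *Tet2*-KO HSCs it read 93.3, 87.6, 140 and 84.6 CPM with vehicle and 69.3, 67.9, 80.1 and 69.3 CPM with IL1β, without overlap and just short of the threshold (log2 change −0.55, adjusted p = 0.0572 in edgeR). Its lowest value was −0.79 in *Tet2*-KO megakaryocyte progenitors, a call lost in 18 of 33 alternatives, with −0.51 without *Tet2*-KO vehicle mouse 3 and −0.38 without the pool of mice 3 and 4. Without that pool its calls were also lost in IMP, at −0.23 (from −0.56), in MPP, at −0.41 (from −0.73), and in erythroblasts, at −0.31 (from −0.69), and it stood at −0.49 (from −0.76) in granulocyte progenitors, where it was still called. In IMP it was also lost without *Tet2*-KO vehicle mouse 3 (−0.37). *Stip1*, which links HSP70 to HSP90, fell in 1 and 4 classes, and *Ptges3*, the p23 co-chaperone, in 2 and 4.

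Of the HSP90 genes, *Hsp90aa1* fell in 1 class in WT and 4 in *Tet2*-KO mice and *Hsp90ab1* in 1 and 2, with a median change over both genes of −0.15 in WT and −0.30 in *Tet2*-KO mice. These lower calls were 12.5% and 37.5% of tests, against 7.8% and 9.49% of all tests. The *Hsp90ab1* calls were lost in 14 of 32 alternatives in WT erythroblasts, 8 of 32 in *Tet2*-KO erythroblasts and 23 of 33 in *Tet2*-KO basophils. The *Hsp90aa1* call in *Tet2*-KO HSCs was lost in 11 of 33 and its other calls in 2 or fewer. In granulocyte progenitors *Hsp90aa1*, given there after its values were seen, as are *Hspa8* and *Hspd1* below, was at 1680 ± 261 CPM in WT vehicle and 1268 ± 86.7 CPM in WT IL1β mice, and at 1829 ± 198 and 1152 ± 132 CPM in the *Tet2*-KO groups (SD, n = 4). The WT change of −0.41 was −0.25 and not called without the WT vehicle pool of mice 3 and 4.

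The 5 HSP70 genes gave 2 lower and 2 higher calls of 40 tests in WT and 5 lower and 1 higher of 40 in *Tet2*-KO mice. The lower calls were 5.0% and 12.5% of tests, against 7.8% and 9.49% of all tests. *Hspa8*, which folds new chains and uncoats clathrin, fell in 2 classes in WT and 4 in *Tet2*-KO mice. In granulocyte progenitors it was at 1978 ± 434 CPM in WT vehicle and 1227 ± 199 CPM in WT IL1β mice (log2 change −0.69), and at 2280 ± 501 and 1058 ± 164 CPM in the *Tet2*-KO groups (−1.11). *Hspa14*, which acts at the ribosome, fell in 1 class in *Tet2*-KO mice.

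*Hspa9*, mitochondrial HSP70 or mortalin, was named after its values were seen, as was *Dnajb6*, because they were the exceptions in direction. *Hspa9* rose in IMP and erythroblasts in WT and in erythroblasts in *Tet2*-KO mice. In erythroblasts it read 258, 266, 259 and 274 CPM in WT vehicle mice and 336, 337, 410 and 397 CPM in WT IL1β mice. It read 287, 282, 256 and 264 CPM in *Tet2*-KO vehicle and 354, 417, 350 and 326 CPM in *Tet2*-KO IL1β mice, again without overlap. These are sums over the few erythroblasts that carried a hashtag call. The log2 changes were 0.49 (adjusted p = 0.000964) and 0.41 (adjusted p = 0.00541) in edgeR, and in WT mice all 8 classes had a fitted value above 0. The calls in erythroblasts were lost in 1 of 32 alternatives in WT and 4 of 32 in *Tet2*-KO mice, and the call in WT IMP (0.29) in 16 of 33, with 0.16 and 0.46 without the WT vehicle pool of mice 1 and 2 or of mice 3 and 4. *Dnajb6*, a J protein that keeps aggregation-prone proteins soluble, rose in WT erythroblasts (0.29), a call lost in 12 of 32 alternatives, and in no class of *Tet2*-KO mice.

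*Hspd1* (HSP60) and *Hspe1* (HSP10), the mitochondrial chaperonin, start from a shared promoter region in opposite directions and gave 5 lower calls of 16 tests in WT and 9 of 16 in *Tet2*-KO mice, with medians of −0.22 and −0.51. These were 31.2% and 56.2% of tests, against 7.8% and 9.49% of all tests called as lower. The *Hspe1* calls in WT MPP and *Tet2*-KO basophils were lost in 14 and 9 of 33 alternatives. The *Hspd1* calls in WT IMP and *Tet2*-KO HSCs were lost in 10 and 13 of 33, and the other calls of both genes in 3 or fewer. In granulocyte progenitors *Hspd1* changed by −0.50 in WT and −0.92 in *Tet2*-KO mice and *Hspe1* by −0.47 and −0.70. In HSCs *Hspe1* read 669, 512, 804 and 703 CPM in WT vehicle and 560, 670, 495 and 614 CPM in WT IL1β mice, which overlapped. In *Tet2*-KO HSCs it read 746, 633, 791 and 717 CPM with vehicle and 405, 543, 534 and 522 CPM with IL1β, without overlap (log2 change −0.52, SE 0.13, adjusted p = 0.00566 in edgeR), a call lost in 3 of 33 alternatives.

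Among the J proteins, *Dnaja1*, a partner of *Hspa8*, fell in 4 classes in each genotype (MPP, IMP, granulocyte progenitors and erythroblasts) and *Dnaja2* in 1 and 3, while *Dnajb1*, *Dnajb4* and *Dnajc7* were called in none. Over the 6 genes there were 5 lower calls and 1 higher of 48 tests in WT and 7 lower of 48 in *Tet2*-KO mice. The lower calls were 10.4% and 14.6% of tests, against 7.8% and 9.49% of all tests, and calls in either direction were 12.5% and 14.6%, against 13.8% and 17.2%. *Dnaja1* was not called in HSCs, where it read 450, 337, 527 and 345 CPM in WT vehicle, 387, 450, 325 and 434 CPM in WT IL1β, 677, 489, 810 and 558 CPM in *Tet2*-KO vehicle and 528, 740, 384 and 475 CPM in *Tet2*-KO IL1β mice. Vehicle and IL1β mice overlapped in both genotypes. Its WT calls were lost in 12 of 33 alternatives in MPP, 16 of 33 in IMP and 14 of 32 in erythroblasts (−0.48, and −0.31 without the WT vehicle pool of mice 3 and 4), and in 1 of 33 in granulocyte progenitors.

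The exchange factors gave 4 lower calls of 32 tests in WT and 9 of 32 in *Tet2*-KO mice, all from *Hsph1* and *Hspa4*, both of the HSP110 family. These were 12.5% and 28.1% of tests, against 7.8% and 9.49% of all tests called as lower. *Hsph1* fell in IMP and granulocyte progenitors in WT and in HSCs, MPP, IMP, granulocyte progenitors and basophils in *Tet2*-KO mice. The call in *Tet2*-KO HSCs (log2 change −0.91, adjusted p = 0.0198 in edgeR), where vehicle and IL1β mice overlapped, was lost in 7 of 33 alternatives and stood at −0.52 (adjusted p = 0.443) without the vehicle pool of mice 3 and 4. Without WT vehicle mouse 3 the WT values were −0.36 in IMP (from −0.63) and −0.58 in granulocyte progenitors (from −0.88), neither then called, and the *Tet2*-KO value in basophils (−0.74) was −0.49 and not called without the *Tet2*-KO IL1β pool of mice 3 and 4. Its change of −1.53 in *Tet2*-KO granulocyte progenitors was the largest of any member in either genotype. There it read 89.6, 54.5, 127 and 90.4 CPM with vehicle and 28.4, 41.2, 27.9 and 29.5 CPM with IL1β. *Hspa4l* and *Bag3*, a co-chaperone that routes clients to autophagy, were not called.

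TRiC, the cytosolic chaperonin that folds actin and tubulin, gave 4 lower calls of 56 tests in WT and 13 of 56 in *Tet2*-KO mice over its 7 subunits tested, with medians of −0.09 and −0.22. The shares of 7.14% and 23.2% compare with 7.8% and 9.49% of all tests called as lower. In WT all 4 calls were in granulocyte progenitors (*Cct3*, *Cct5*, *Cct7* and *Cct8*), where 31.1% of all genes were called. They were lost in 8, 9, 2 and 4 of 33 alternatives. In *Tet2*-KO mice 6 of the 7 fell there, from −0.20 for *Tcp1* to −0.65 for *Cct8*, where 40.4% of all genes were called. The calls of *Tcp1* and *Cct4* there were lost in 16 and 7 of 33 alternatives and the others in 0. *Cct2* was not called in any class. *Hsf1*, the factor itself, was not called in either genotype, with values from −0.52 to −0.16 in WT and from −0.56 to 0.11 in *Tet2*-KO mice.

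The inducible *Hspa1a*, *Hspa1b* and *Dnajb1* were called in no class, and *Hspa1b* had a fitted value above 0 in 7 of 8 classes in WT and 8 of 8 in *Tet2*-KO mice. Over all 4 inducible genes, 2 of 32 tests were called in WT and 5 of 32 in *Tet2*-KO mice, all of *Hsph1* and all lower. These were 6.25% and 15.6% of tests, against 7.8% and 9.49% of all tests called as lower. In HSCs the change of *Hspa1b* with IL1β was 0.79 in WT and 1.16 in *Tet2*-KO mice, and neither was called. The WT value ran from 0.29 without WT vehicle mouse 4 to 1.90 without WT vehicle mouse 3, was 1.28 without WT IL1β mouse 1, and was 1.22 and 0.20 without the WT IL1β pool of mice 1 and 2 or of mice 3 and 4. The *Tet2*-KO value was 0.76 without *Tet2*-KO vehicle mouse 4. The IL1β mice ranged from 29.6 to 304 CPM in WT and from 262 to 800 CPM in *Tet2*-KO mice.

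The changes in the 2 genotypes were also set side by side. The value in *Tet2*-KO mice lay below that in WT mice in 202 of 249 tests, which share the same mice. It lay above that in WT mice for 48.2% to 51.5% of all genes of a class. The interaction of genotype and IL1β, which tests that difference itself, was called in 0 of 249 tests, where 0% of all tests were called. At an unadjusted p under 0.05 it gave 18 of 249, against 3.84% of all tests. For *Ahsa1* in HSCs the interaction was −0.48 (SE 0.22, adjusted p = 1.00 in edgeR), and the smallest unadjusted p among the members, 0.00962, was that of *Cct8* in MPP (−0.43, adjusted p = 1.00 in edgeR). A stronger response of *Tet2*-KO cells was thus not shown for any member, and the larger number of calls in *Tet2*-KO mice is no test of it.

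Of 53 other genes of protein folding and quality control, taken from a list made by name, 82 lower and 6 higher calls were found in 404 tests with IL1β in WT mice and 117 lower and 3 higher in *Tet2*-KO mice. The shares called were 21.8% and 29.7%, against 13.8% and 17.2% of all tests. *Ubb*, which encodes polyubiquitin, fell in 8 of 8 classes in both genotypes, by −1.21 on average over classes in WT and −0.93 in *Tet2*-KO mice, and *Nudc*, a co-chaperone of HSP90 linked to dynein, in 8 of 8 by −0.91 and −0.93. *Pfdn5*, a prefoldin subunit that passes chains to TRiC, fell in 8 of 8 classes in WT, and *Grpel1*, the exchange factor of mitochondrial HSP70, in 7 of 8 in *Tet2*-KO mice. No gene of that list was called between genotypes.

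Other measures moved with IL1β as well. The share of mitochondrial UMIs was 3.54% to 4.31% in vehicle mice and 4.70% or more in every IL1β mouse. A score of 16 proliferation genes went from 7.28 to 7.14 in *Tet2*-KO granulocyte progenitors and from 7.05 to 6.76 in *Tet2*-KO IMP, without overlap. In WT mice it went from 7.29 to 7.23 and from 7.03 to 7.12 in these classes, with overlap. In *Tet2*-KO MPP it was 7.40 with either treatment. In HSCs the genotypes did not overlap with IL1β, at 6.17 to 6.38 in *Tet2*-KO and 6.70 to 7.05 in WT mice, and overlapped with vehicle. Between genotypes 2 of 128 tests of these genes were called with IL1β, both lower in *Tet2*-KO mice, and 0 with vehicle. Immediate early genes gave 21 higher calls of 106 tests in WT and 12 of 106 in *Tet2*-KO mice, shares of 19.8% and 11.3% against 5.99% and 7.75% of all tests called as higher. In WT the calls came from 7 genes, with 100 tests higher, 6 lower and a median log2 change of 0.80. In *Tet2*-KO mice they came from 3 genes, with 53 tests higher, 53 lower and a median of −0.015, so the list as a whole did not rise there. The summed level of 10 markers of other cell types in HSCs was 1311 to 2521 CPM in WT vehicle, 1768 to 2959 in WT IL1β, 1501 to 3348 in *Tet2*-KO vehicle and 2059 to 2884 in *Tet2*-KO IL1β mice, with overlap of all groups. The part of these measures in the chaperone changes was not tested. Counts of *Tet2* at the 3′ end were 39.4 to 99.8 CPM in HSCs of all 16 mice and do not check the knockout, since a deletion within the gene can leave them in place.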

How the data were processed

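Members and lists were chosen by name with earlier results of these data known. The authors counted UMIs with Cell Ranger 3.1.0 on mm10 from 3′ libraries, and the deposited counts are raw, per gene and barcode, without normalization. Seurat 3.2.3 is named in the submitters' processing notes. Every count column used belongs to a sample, with 0 others. Barcodes with at least 750 genes and at most 10% mitochondrial UMIs were kept. Hashtags were classified with HTODemux (Seurat 5.3.0). Cells with both hashtags were dropped as doublets (4.15%), and cells without a mouse were left out. Doublets within a mouse were not removed. WT vehicle cells were clustered (2000 variable genes, 30 components, 20 neighbours, Leiden resolution 1, 31 clusters), without the chaperones among the variable genes, and other cells took the majority cluster of their neighbours. A class may hold several clusters.

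UMIs were summed per mouse and class, for mice with at least 10 cells, which all 16 had. Genes passed filterByExpr, were scaled by TMM and were tested with edgeR 4.0.16 (quasi-likelihood, 4 groups in 1 fit per class, R 4.3.3), with Benjamini-Hochberg adjustment over all genes of the class and a threshold of 0.05. Mice sharing a library were treated as separate, so p-values leave out effects common to a pool. CPM use TMM-adjusted totals, and scores are means of log2(CPM + 1). The depth in HSCs was 81253 to 1880703 UMIs per mouse. Tested on simulated data for *Tet2*-KO against WT with vehicle in HSCs (8409 genes), the fit recovered 61.9% of genes given a log2 change of 1 and 96.9% of those given 2. These shares are over the changed genes together. They do not give the recovery for genes that vary as much between mice as the inducible chaperones.

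Values per mouse were given for the 4 inducible genes and, per comparison, for up to 3 further members called in the most classes. Alternatives were DESeq2 1.42.0, no filter, a replicate block, sex, pools as replicates, a hashtag ratio rule, a marker gate on each cell, removal of the 5% of cells with the most UMIs, the largest cluster of each class, single mice or pools left out, plain totals and a pseudocount of 10. Sex, single pools and the largest cluster were added after the data were seen.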

Additional observations from a re-analysis of the deposited data

Results flagged for a closer look

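Of 40 groups of 4 mice examined for a value far from the others, 3 were singled out, where about 1 in 20 is expected by chance. *Hspe1* in HSCs of *Tet2*-KO IL1β mouse 1 was lowest at 405 CPM, against 522 to 543 CPM in the other mice of its group. *Chordc1* in HSCs of *Tet2*-KO vehicle mouse 3 was highest at 140 CPM, against 84.6 to 93.3 CPM, and in HSCs of *Tet2*-KO IL1β mouse 3 it was highest at 80.1 CPM, against 67.9 to 69.3 CPM. Mouse 3 is a different animal in each group.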

How the results depend on the processing

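The count of 34 member calls for IL1β in WT mice was 14 with pools as replicates, 20 with the hashtag ratio rule, 20 to 37 with single mice left out (22 without WT vehicle mouse 3 and 20 without WT IL1β mouse 3), 21 and 12 without the WT vehicle pool of mice 1 and 2 or of mice 3 and 4, and 15 without the WT IL1β pool of mice 3 and 4. The count of 70 in *Tet2*-KO mice was 45 with pools as replicates, 55 to 78 with single mice left out and 37 without the *Tet2*-KO vehicle pool of mice 3 and 4. Over single pools left out the counts ran from 12 to 41 in WT and from 37 to 93 in *Tet2*-KO mice. Of the 34 and 70 calls, 18 and 52 were made in every fit that left out a mouse, 5 and 35 in every fit that left out a pool, 32 and 68 with DESeq2, 20 and 61 with the hashtag ratio rule, 20 and 38 with the gate, whose own counts were 26 and 47, and 13 and 44 with pools, where all kept their sign. The 0 genotype calls with vehicle became 17 with no filter and 1 without the *Tet2*-KO vehicle pool of mice 3 and 4 (*Dnajb1* in HSCs), and the 0 with IL1β became 13 with no filter, 2 with pools as replicates (*Hspa1a* and *Hspa1b* in HSCs) and 2 without the *Tet2*-KO IL1β pool of mice 3 and 4 (*Hspa1a* in IMP, *Dnajb4* in granulocyte progenitors). With no filter, edgeR's prior degrees of freedom were infinite in HSCs, MPP and basophils, so that the spread of single genes no longer counted there. The constitutive score difference with IL1β in WT was 0.059 on plain totals, above 0, against −0.062, and 0.0043 without the WT vehicle pool of mice 3 and 4. The inducible score difference with IL1β was above 0 in both genotypes, but over single mice left out it ran from −0.14 to 0.44 in WT and from −0.21 to 0.33 in *Tet2*-KO mice, over single pools from −0.053 to 0.46 and from −0.17 to 0.41, and with pools as replicates it was −0.062 in WT. The largest cluster of each class gave 37 and 78 IL1β calls. The interaction stayed at 0 in all 33 alternatives. Apart from those of the largest clusters, the shares of all tests called in these alternatives are not given here.

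With pool number as a replicate block the IL1β calls were 35 in WT and 79 in *Tet2*-KO mice, and the block gave no genotype or interaction call. Over all genes, 20 of 48 correlations between the pool differences of 2 groups were over 0.1 and 18 were below 0, with all 6 over 0.1 only in megakaryocyte progenitors, so pools of a number were taken to share only that number, although the vehicle pools of the 2 genotypes correlated over 0.1 in 8 of 8 classes (0.17 to 0.51) and immediate early genes were higher in the pool of mice 1 and 2 of every group.

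Signs turned for uncalled values in HSCs. *Hspa1a* with IL1β in WT was −0.27 with pools, −0.48 with the gate, −0.33 without WT vehicle mouse 4, −0.25 without WT IL1β mouse 3, and −0.46 and −0.17 without the WT vehicle or IL1β pool of mice 3 and 4 (−0.33 to 0.83 over single mice left out). *Hsph1* with IL1β in WT was 0.085 with the gate. *Hsph1* between genotypes with IL1β was −0.26 with DESeq2, −0.48 with the ratio rule, −0.19 with the gate, −0.18 without WT IL1β mouse 1, −0.27 without *Tet2*-KO IL1β mouse 2, and −0.021 and −0.14 without the WT or *Tet2*-KO IL1β pool of mice 1 and 2 (−0.27 to 0.33 over single mice left out). *Dnajb1* with IL1β was −0.17 in WT and −0.11 in *Tet2*-KO mice without the vehicle pool of mice 3 and 4. The cause was not tested. The gate left too few erythroblasts for a fit. Depth was lowest in HSCs, basophils and monocytes, where single mice gave as few as 34, 31 and 26 cells.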
